A study of Homo sapiens with 47 samples.

Results

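The genes described here are 10 transcriptional targets and feedback regulators of WNT/beta-catenin signalling, with the TCF/LEF factors that carry its nuclear output: AXIN2, LEF1, TCF7, TCF7L1, NKD1, RNF43, ZNRF3, SP5, LGR5 and APCDD1. They were taken by name as listed pathway genes, matched by Ensembl gene identifier, and all 10 were found among the 58051 genes of every library. RNA was sequenced from 47 libraries of the human embryonic stem cell line WA09 (H9), an established line. Undifferentiated cells in mTESR1 (t0) were moved to N2B27 medium without vitamin A that held CHIR-99021, rhFGF2, AGN193109 and Y-27632. After 36 h the cells were neuromesodermal-like, and they were passaged in that same medium from P1 to P10. CHIR-99021 inhibits the kinase GSK3 and so acts as a WNT agonist, AGN193109 is an inverse agonist of retinoic acid receptors, and Y-27632 inhibits the kinase ROCK. Every group after t0 therefore had the same agonist and the same kinds of additive, with more Y-27632 during the first passages than later in the study's protocol, and t0 is the only group without them, so the agonist cannot be told apart from the rest of the medium change.

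There were 3 differentiations, and each was followed through the time points. Whole cultures gave 35 libraries, 3 at each of t0, 36h and P1 to P10 except for 2 at P9, where differentiation 3 was not analysed here. At P5 and P8 the cultures were also split by selective detachment into an epithelial (EPI) and a mesenchymal (MES) enriched fraction, which gave 12 more libraries, 3 per fraction and passage. All libraries come from 1 cell line, so the differences described are between differentiations of that line.

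In canonical WNT signalling a destruction complex built on AXIN and APC lets GSK3 mark beta-catenin for degradation. When GSK3 is inhibited, beta-catenin accumulates, binds TCF/LEF proteins at DNA and switches on target genes. Many of these targets act back on the pathway: AXIN2 rebuilds the destruction complex, NKD1 binds Dishevelled, RNF43 and ZNRF3 are membrane ubiquitin ligases that clear Frizzled receptors, and APCDD1 is a membrane inhibitor that acts at the level of the ligand and its receptors. LGR5 is a receptor for R-spondins, which protect Frizzled from RNF43 and ZNRF3. Sustained WNT activity is characteristic of the posterior embryo, where neuromesodermal progenitors reside.

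The data of all libraries set some limits. Expected counts summed to between 13029491 and 64082859 per library (median 47292229), with 4 libraries at 24317552 or fewer. Of the 3 libraries at P1, that of differentiation 1 was nearest to a 36h library and its 4 pluripotency markers summed to 1203 TPM (transcript abundance scaled for gene length and library depth), against 99.4 and 103 TPM in the others. The P10 library of differentiation 1 was nearest to a P7 library, and SOX2, a gene of pluripotent and neural cells, was at 214 TPM in it against 0.50 and 0.71 TPM in the other P10 libraries. The neural markers SOX1 and PAX6 were at or below 0.20 TPM in all 3. The P9 library of differentiation 1 was closest to a P10 library but at a root mean square distance of 0.80 on the log2 scale. The epithelial fractions were low in the epithelial markers listed here: EPCAM, CDH1, CLDN6 and ESRP1 together summed to between 5.37 and 8.08 TPM in the P5 epithelial libraries, against 888 to 1071 TPM at t0. Their labels are used below as fraction names. In bulk samples, fewer cells that express a gene and less RNA per cell cannot be told apart.

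Promoter windows were available for 6 of the 10 genes, in 8 windows from RefSeq (build GRCh38.p14), of which the 250 bases upstream of the start site were searched. The letters searched were CTTTGA and CTTTGT on both strands, forms of the core that TCF/LEF proteins are known to bind, and they were chosen with the SP5 window in view. SP5, which encodes a zinc finger repressor of the SP family, is printed because it had the largest rise at 36h, and TCF7L1 because it was the member that fell. Capitals mark the letters found, and both sequences are written 5′ to 3′ on the plus strand, SP5 from chr2:170715087-170715336 and TCF7L1 from chr2:85133142-85133391.
SP5: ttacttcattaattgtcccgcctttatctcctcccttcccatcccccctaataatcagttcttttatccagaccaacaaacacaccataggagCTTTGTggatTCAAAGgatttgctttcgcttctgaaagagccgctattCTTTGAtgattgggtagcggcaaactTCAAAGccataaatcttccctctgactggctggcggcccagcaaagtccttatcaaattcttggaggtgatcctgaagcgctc
TCF7L1: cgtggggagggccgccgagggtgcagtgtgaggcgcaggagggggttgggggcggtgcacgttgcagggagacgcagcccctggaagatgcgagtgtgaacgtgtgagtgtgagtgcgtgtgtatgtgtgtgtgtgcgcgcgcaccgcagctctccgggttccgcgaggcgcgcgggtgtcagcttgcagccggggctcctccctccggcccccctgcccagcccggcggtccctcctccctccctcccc

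The SP5 window held 3 matches to CTTTGA, beginning 147, 109 and 83 bases before the start site, and 1 to CTTTGT, 157 bases before it. Of the 35116 upstream windows in the table, 11.2% held at least 1 CTTTGA and 0.0655% held at least 3, while 13.7% held at least 1 CTTTGT. The TCF7L1, LEF1 and APCDD1 windows held none of these letters. The LEF1 window (108166302-108166551, minus strand) lies inside the annotated gene, which begins at 108168956 on that strand. The sequence upstream of that position was not searched, so the absence of letters covers the LEF1 window only. Both RNF43 windows held 1 CTTTGT, and of the 2 TCF7 windows, 1 held 2 CTTTGT and the other none. Both TCF7 windows lie inside the annotated gene, which begins at 134114711, and the window with 2 CTTTGT starts at 134123368. The RNF43 window at 58402722-58402971 (minus strand) also lies inside its gene, which begins at 58417595 on that strand. All matches given here describe letters in a window, and binding was not measured.

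The first comparison asked how the genes differed between undifferentiated cells and cells after 36 h in the agonist medium. A gene was called where edgeR's quasi-likelihood test gave an adjusted p (Benjamini-Hochberg over all 21750 genes tested) under 0.01, the levels differed 2-fold or more, and normalized counts averaged 100 or more over the libraries compared. All 10 members were tested, 7 were called higher (AXIN2, LEF1, TCF7, NKD1, RNF43, SP5 and APCDD1), 1 was called lower (TCF7L1), and 2 were not called (ZNRF3 and LGR5). Over all genes tested, 1.33% were called higher and 1.37% lower. The median log2 fold change was 3.05 over the members and 0.004 over all genes.

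**Figure D1:**
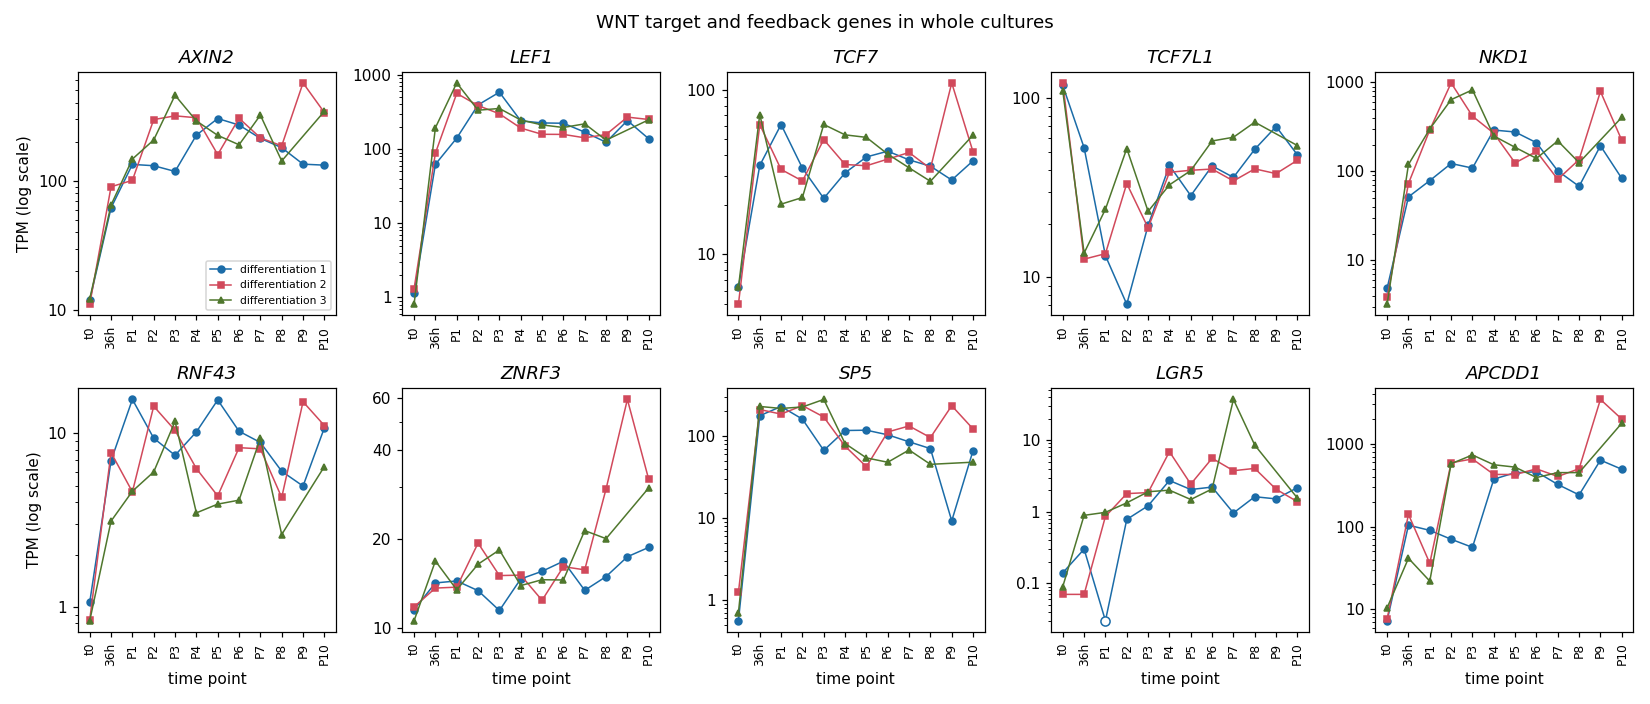
TPM on a log axis for each of the 10 genes in whole cultures from t0 to P10, with 1 line for each differentiation; the open symbol in the LGR5 panel is a library at 0 TPM drawn at the foot of the axis, and differentiation 3 has no point at P9. Lines for AXIN2, LEF1, TCF7, NKD1, RNF43, SP5 and APCDD1 rise from t0 to 36h in all 3 differentiations and stay above t0, while TCF7L1 falls.

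Among the feedback genes, AXIN2 (ENSG00000168646, chr17:65528563-65561647, GRCh38 in GENCODE 29) was at 11.9, 11.1 and 12.2 TPM in differentiations 1 to 3 at t0, and at 61.8, 90.0 and 65.0 TPM at 36h. The groups were far apart, and the t0 libraries varied little. AXIN2 rose by 2.57 on the log2 scale (SE 0.44, adjusted p = 0.00039 by edgeR). NKD1 (ENSG00000140807, chr16:50548330-50649249), the Dishevelled-binding inhibitor, was at 4.86, 3.83 and 3.21 TPM at t0 and at 51.7, 73.1 and 120 TPM at 36h. It rose in every differentiation, with a log2 fold change of 3.82 (SE 0.64, adjusted p = 0.000296 by edgeR). APCDD1 (ENSG00000154856, chr18:10454628-10489948) was at 7.30, 7.67 and 10.4 TPM at t0 and at 104, 140 and 41.4 TPM at 36h. Differentiation 3 had the smallest rise, although it lay above every t0 library, and the log2 fold change was 3.49 (SE 0.74, adjusted p = 0.00278 by edgeR).

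The paired ubiquitin ligases differed in their values. RNF43 (ENSG00000108375, chr17:58352500-58417595) was at 1.06, 0.84 and 0.83 TPM at t0 and at 6.97, 7.76 and 3.12 TPM at 36h, a log2 fold change of 2.85 (SE 0.51, adjusted p = 0.000601 by edgeR). Its exons overlap SUPT4H1 on the same strand, a gene that reached 132 TPM, so low RNF43 values are uncertain where reads could be assigned to either. ZNRF3 (ENSG00000183579, chr22:28883592-29057487) was at 11.6, 11.8 and 10.6 TPM at t0 and at 14.2, 13.7 and 16.9 TPM at 36h. The 3 libraries at 36h lay above all 3 at t0, but the log2 fold change of 0.61 (SE 0.26) did not pass the test (adjusted p = 0.133 by edgeR). LGR5 (ENSG00000139292, chr12:71439770-71586310) was barely detected, with 15, 6 and 13 expected counts at t0 and 25, 7 and 109 at 36h, and the log2 fold change of 1.82 (SE 1.05) did not pass either (adjusted p = 0.287 by edgeR).

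SP5 (ENSG00000204335, chr2:170715351-170718078) went from 0.56, 1.24 and 0.70 TPM at t0 to 177, 211 and 230 TPM at 36h. This was the largest log2 fold change of the members, 8.17 (SE 0.86, adjusted p = 8.77e-07 by edgeR), and its 36h libraries were close to each other. LEF1 (ENSG00000138795, chr4:108047545-108168956), the TCF/LEF family member most often described as a WNT-induced activator, went from 1.15, 1.31 and 0.81 TPM to 62.4, 88.2 and 194 TPM. The change was 7.02 on the log2 scale (SE 0.56, adjusted p = 1.01e-08 by edgeR). TCF7 (ENSG00000081059, chr5:134114711-134151865), which encodes TCF1, went from 6.31, 4.99 and 6.31 TPM to 34.7, 61.4 and 70.7 TPM, a log2 fold change of 3.25 (SE 0.43, adjusted p = 1.93e-05 by edgeR). TCF7 shares exon sequence with SKP1 on the opposite strand, a gene of up to 636 TPM, and the strand setting of the counting is not given in the sources used here, so reads of the pair may not have been told apart.

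TCF7L1 (ENSG00000152284, chr2:85133410-85310388) encodes TCF3, the family member known chiefly as a repressor in pluripotent cells. It was at 118, 122 and 110 TPM at t0 and at 53.0, 12.7 and 13.7 TPM at 36h. It fell in all 3 differentiations, and least in differentiation 1, which stood above the other 36h libraries. The log2 fold change was -2.20 (SE 0.47, adjusted p = 0.00302 by edgeR). Pluripotency markers (POU5F1, NANOG, PRDM14 and DPPA4) moved with it, summing to between 2393 and 2701 TPM at t0 and to between 771 and 2200 TPM at 36h, and their part in the TCF7L1 result was not tested.

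These calls depended on which differentiation was left out. Without differentiation 1 all 8 were still called, with adjusted p from 9.63e-08 for LEF1 to 0.00089 for RNF43 by edgeR. Without differentiation 2, only LEF1 and SP5 were called, and without differentiation 3 only LEF1, SP5 and TCF7, while the fold changes of all 8 called genes kept their sign. The share of all genes called in these fits is not given here, so the lost calls are not a result about the members. Other pathway genes called at this step, described below, lost their calls in the same fits, apart from the homeobox gene CDX1. With only the 6 libraries of t0 and 36h in the fit, 5 members were called higher and none lower. The 36h libraries also differed in cell markers, with SOX2 at 217, 21.3 and 4.14 TPM in differentiations 1 to 3. The presomitic mesoderm markers TBX6 and MSGN1 summed to 6.56, 129 and 629 TPM in them. LEF1, TCF7, NKD1 and SP5 levels at 36h rose in that order, and those of AXIN2, RNF43 and APCDD1 did not. The part of these markers in the 36h values was not tested.

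**Figure D2:**
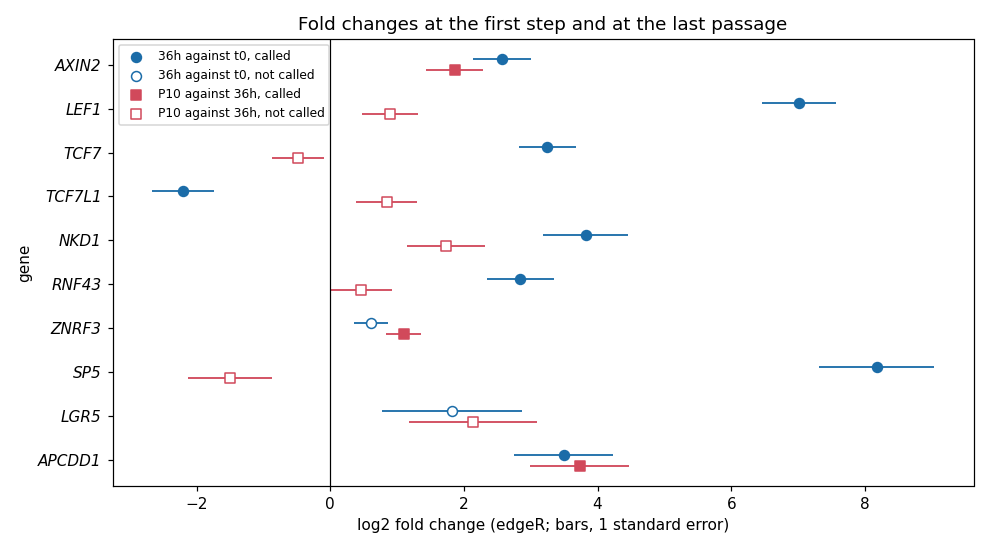
Log2 fold change of each gene (x axis) by edgeR with 1 standard error, for 36h against t0 (circles) and for P10 against 36h (squares); filled symbols were called. SP5 at 8.17 and LEF1 at 7.02 are the largest at the first step, and AXIN2, ZNRF3 and APCDD1 are the genes called at P10.

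The second comparison asked whether the response was held as the agonist was kept on. Against t0, 7 to 9 members were called higher at every passage. AXIN2, LEF1, TCF7, NKD1, RNF43, SP5 and APCDD1 were called higher at all 10 passages, and the gene sets differed only in ZNRF3 and LGR5. AXIN2, LEF1, NKD1 and SP5 kept these calls at all 10 passages when any 1 differentiation was left out, where P9 can be down to 1 library that is assumed to vary like the other groups. The share of all genes called higher grew over the same passages: it was 3.42% at P1, 5.89% at P2, 5.8% at P3, 6.22% at P4 and 6.44% at P5. It was 6.68% at P6, 7.26% at P7, 7.66% at P8, 10.3% at P9 and 9.5% at P10. TCF7L1 was called lower from P1 to P7, where the share of all genes called lower was 5.37%, 6.94%, 7.83%, 7.78%, 7.85%, 7.91% and 7.9% in turn, and was not called from P8 to P10 (log2 fold change -1.26, SE 0.45, adjusted p = 0.0235 by edgeR at P8). Without differentiation 2, TCF7L1 was not called lower at any passage, and without differentiation 1 it was called lower at all 10.

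Over all 44 libraries after t0, fractions included, AXIN2, LEF1, TCF7, NKD1, RNF43, SP5 and APCDD1 lay above every t0 library in 44 of 44, as did 9.11% of the 13297 genes that averaged 100 normalized counts or more. ZNRF3 did so in 43, the exception being P3 in differentiation 1 at 11.5 TPM. LGR5 did so in 42, the exceptions being 36h in differentiation 2 at 0.07 TPM and P1 in differentiation 1, where it had no count. TCF7L1 lay below every t0 library in 44 of 44, as did 6.28% of those genes.

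The genes did not follow a common course after 36h, as the plot of TPM by time point shows. AXIN2 went on to higher levels. Its TPM was 134, 101 and 147 at P1, 225, 307 and 290 at P4, 303, 159 and 224 at P5, 180, 186 and 142 at P8, and 132, 337 and 344 at P10. Every library from P1 on was above every 36h library, and AXIN2 was called higher against 36h at P3 to P7, P9 and P10, with log2 fold changes from 1.66 (SE 0.42, adjusted p = 0.00416 by edgeR at P5) to 2.24 (SE 0.46, adjusted p = 0.000456 by edgeR at P9). The call at P5 was lost without any 1 of the differentiations (adjusted p = 0.018, 0.0173 and 0.0613 by edgeR), and the other 6 were lost without differentiation 2 and without differentiation 3. In the order of its mean levels, all neighbouring groups from P9 down to P1 overlapped.

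LEF1 was highest early. It was at 141, 564 and 781 TPM at P1, at 395, 387 and 335 TPM at P2, and at 585, 299 and 353 TPM at P3. By P8 it was at 124, 157 and 132 TPM, below every library of P2 and P3 and within the 36h range of 62.4 to 194 TPM. At P9 it was at 243 and 270 TPM, above every 36h library, and at P10 at 138, 251 and 249 TPM. It was called higher against 36h at P1 (log2 fold change 2.11, SE 0.43, adjusted p = 0.00447 by edgeR), P2 and P3 and at no later passage. The P2 and P3 calls were lost without differentiation 2 (adjusted p = 0.154 and 0.0741 by edgeR), and the P2 call also without differentiation 3 (adjusted p = 0.0156 by edgeR). Without the P1 library of differentiation 1 the value at P1 was 2.56 (adjusted p = 5e-05 by edgeR), whereas without differentiation 2 or 3 the adjusted p at P1 was 0.299 and 0.0734. The presomitic mesoderm markers TBX6 and MSGN1 were also high at these times, summing to 1.97 to 2.80 TPM at t0, to 6.56 to 629 TPM at 36h and to 1.71 to 2.71 TPM at P5. At P1 they summed to 6.03, 358 and 312 TPM in differentiations 1 to 3, lowest where LEF1 was lowest, and at P2 to 303, 35.5 and 20.9 TPM, highest where NKD1 was lowest. Their part in the LEF1, NKD1 and SP5 values was not tested.

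NKD1 was also high early, and its libraries were then far apart. It was at 123, 988 and 641 TPM at P2 and at 109, 418 and 826 TPM at P3, with differentiation 1 lowest both times. It was called higher against 36h at P2 (log2 fold change 2.44, SE 0.60, adjusted p = 0.00466 by edgeR), P3 and P9. None of these 3 calls was kept without differentiation 2 or without differentiation 3. The libraries of P4 lay close together, between 250.3 and 292 TPM, and at P8 NKD1 was at 67.9, 136 and 125 TPM, a range that overlapped that of 36h. At P9 NKD1 was at 194 and 792 TPM and at P10 at 83.4, 224 and 405 TPM.

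SP5 had lower values at the later passages. It was at 230, 186 and 218 TPM at P1, at 118, 42.3 and 54.2 TPM at P5, at 70.4, 96.0 and 45.3 TPM at P8 and at 66.7, 122 and 48.1 TPM at P10. All libraries of P4 to P8 and of P10 lay below every 36h library, yet no passage passed the test against 36h: the log2 fold change was -1.49 (SE 0.63, adjusted p = 0.0732 by edgeR) at P5 and -1.67 (SE 0.63, adjusted p = 0.0401 by edgeR) at P8. SP5 was called lower at P5 without differentiation 1 (-2.35, SE 0.52, adjusted p = 0.00415 by edgeR). The P9 libraries were at 9.25 and 235 TPM, the widest spread of SP5 in any group. Without differentiation 2, which leaves 1 P9 library that is assumed to vary like the other groups, SP5 was called lower at P9 (-4.38, SE 0.85, adjusted p = 0.00409 by edgeR). Even the lowest P9 value was above every t0 library.

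APCDD1 rose above its 36h level by P2 in differentiations 2 and 3 and by P4 in differentiation 1. It first dipped to 89.9, 36.1 and 22.0 TPM at P1. In differentiations 2 and 3 it was then at 588 and 574 TPM by P2. Differentiation 1 was at 70.2 TPM at P2 and 56.1 TPM at P3, and reached 373 TPM at P4. From P4 to P8 all whole-culture libraries lay between 241 and 557 TPM. At P9 it was at 633 and 3421 TPM and at P10 at 491, 1979 and 1765 TPM, the highest levels of any member. It was called higher against 36h only at P9 (log2 fold change 4.15, SE 0.79, adjusted p = 0.000184 by edgeR) and P10 (3.73, SE 0.74, adjusted p = 0.000284 by edgeR), and neither call was kept without differentiation 2 or without differentiation 3. Without differentiation 1 it was called higher at every passage from P2 on, at 2.53 (SE 0.43, adjusted p = 0.000662 by edgeR) at P2. Among 8 markers of mesenchyme and neural crest, SNAI1, SNAI2, TWIST1 and TFAP2A were higher in both P9 libraries than in every P8 library, whereas SOX9, SOX10, PDGFRA and ETS1 overlapped between P8 and P9. The 8 together went from sums of 204 to 696 TPM at P8 to 1181 and 1203 TPM at P9 and 275 to 1105 TPM at P10. SOX2 was at 100.2 to 320 TPM at P8 and at 4.88 and 5.98 TPM at P9. The part of either in the APCDD1 values was not tested.

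ZNRF3 stayed near its early level for most of the course and then diverged between differentiations. It was at 15.6, 12.5 and 14.6 TPM at P5, at 15.0, 29.6 and 20.1 TPM at P8, at 17.5 and 59.4 TPM at P9 and at 18.8, 31.9 and 29.8 TPM at P10. It was called higher against 36h at P9 (log2 fold change 1.59, SE 0.29, adjusted p = 0.000125 by edgeR) and P10 (1.10, SE 0.26, adjusted p = 0.00145 by edgeR). Neither P9 nor P10 was called for ZNRF3 without differentiation 2. The P10 call was also lost without differentiation 3 (adjusted p = 0.0408 by edgeR). RNF43 was at 6.05, 4.27 and 2.61 TPM at P8 and at 10.8, 11.1 and 6.44 TPM at P10, higher in the whole culture of each differentiation. The P8 fractions of differentiation 3 were at 7.58 TPM (EPI) and 6.77 TPM (MES), above its P10 library. The difference between P10 and P8 did not pass the test (log2 fold change 1.09, SE 0.47, adjusted p = 0.246 by edgeR), and RNF43 was not called against 36h at any passage.

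LGR5 stayed low up to P6. It lay between 0.78 and 1.79 TPM at P2, 2.00 and 6.90 TPM at P4, 1.48 and 2.43 TPM at P5, and 2.08 and 5.58 TPM at P6. At P7 it was at 0.96, 3.74 and 37.0 TPM, so differentiation 3 stood apart with 3968 expected counts, and at P8 it was at 1.62, 4.03 and 8.53 TPM. LGR5 was called higher against 36h at P7 (log2 fold change 4.71, SE 1.05, adjusted p = 0.00115 by edgeR) and P8 (3.41, SE 0.99, adjusted p = 0.00875 by edgeR). Both calls depended on the differentiations included: without differentiation 3 the log2 fold change at P7 was 3.26 (adjusted p = 0.0585 by edgeR) and without differentiation 2 the value at P7 was 4.68 (adjusted p = 0.0388 by edgeR). The P8 call was lost without any 1 of them (adjusted p = 0.0124, 0.136 and 0.039 by edgeR). Against t0, LGR5 was called higher at P4 (log2 fold change 5.10, adjusted p = 0.000631 by edgeR), P6 (4.86, adjusted p = 0.000874 by edgeR), P7 and P8. The P4, P6 and P8 calls against t0 were lost without differentiation 2 (adjusted p = 0.0464, 0.0509 and 0.0241 by edgeR). Those at P7 and P8 were lost without differentiation 3 (adjusted p = 0.017 and 0.0116 by edgeR).

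TCF7 stayed between 20.2 and 70.7 TPM in all whole cultures from 36h to P10 except P9 in differentiation 2, which was at 110 TPM. No passage was called against 36h for TCF7, although without differentiation 1 it was called lower at P1, P2 and P8 (log2 fold change -1.27, SE 0.27, adjusted p = 0.00223 by edgeR at P8). TCF7L1 was at 13.2, 13.6 and 24.1 TPM at P1, at 7.09, 33.5 and 52.5 TPM at P2, and was at 52.0, 40.4 and 73.7 TPM at P8. Its difference from 36h did not pass the test at P8 (log2 fold change 0.94, SE 0.46, adjusted p = 0.108 by edgeR). Without differentiation 1, whose 36h library stood above the others, TCF7L1 was called higher against 36h at P2 and at every passage from P4 to P10, at 1.92 (SE 0.26, adjusted p = 9.23e-05 by edgeR) at P8.

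Counted over members, the number called higher against 36h was 1 at P1, 2 at P2, 3 at P3, 1 at each of P4, P5 and P6, 2 at P7, 1 at P8, 4 at P9 and 3 at P10, and none was called lower at any passage, apart from the calls of SP5 and TCF7 gained with fewer differentiations. The share of all genes called higher was 0.492% at P1, 2.6% at P2, 2.88% at P3, 3.62% at P4, 3.78% at P5, 4.11% at P6, 4.68% at P7, 5.37% at P8, 8.04% at P9 and 7.27% at P10. The share called lower was, from P1 to P10, 0.699%, 2.91%, 4.05%, 4.49%, 4.54%, 4.77%, 4.9%, 4.77%, 6.37% and 5.69%. The calls at P10 are AXIN2, ZNRF3 and APCDD1. Without the P10 library of differentiation 1, NKD1 joined them (log2 fold change 2.08, adjusted p = 0.00884 by edgeR), and without differentiation 2, or without differentiation 3, no member was called at P10. Without the P1 library of differentiation 1, LGR5 was also called higher at P4 and P6, APCDD1 at P5 and LEF1 at P9, and AXIN2 was called at P2 without differentiation 1 or without its P10 library. The passages are all set against the same 36h libraries, so these counts share their reference.

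Between 1 passage and the next, no member was called at any step by edgeR. Without differentiation 1, APCDD1 was called higher at P2 against P1 (log2 fold change 4.15, SE 0.46, adjusted p = 0.000203 by edgeR), and TCF7, NKD1, ZNRF3 and APCDD1 at P9 against P8, with 1 P9 library left. With all differentiations in the fit, the share of all genes called was 0.0276% for P2 against P1, 0.0092% for P3 against P2 and 1.22% for P9 against P8. No gene was called at the other steps. The share without differentiation 1 is not given here. At P9 against P8, 7 of the 10 members had an unadjusted p under 0.05, as did 26.3% of all genes, and NKD1 had the smallest adjusted p of them (log2 fold change 2.16, SE 0.64, adjusted p = 0.0326 by edgeR). DESeq2 called 1 member and 0.754% of all genes at P2 against P1, and no member at the later steps, where its share was at most 3.77%, at P9 against P8. P8 against P5 (0.0092% of genes called) and P10 against P8 (0.0874%) also called no member. There 1 and 2 members had an unadjusted p under 0.05 by edgeR, and the share of all genes under that limit is not given here. Without differentiation 1 APCDD1 was called higher at P10 against P8 (2.08, SE 0.42, adjusted p = 0.00489 by edgeR).

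The TCF/LEF factors can be set side by side in TPM, which is per length, and the makeup of the family differed between t0 and the later groups. TCF7L1 supplied 72.4% ± 1.37 (SD, n = 3) of the summed TPM of TCF7L1, TCF7L2, TCF7 and LEF1 at t0, with LEF1 at 0.67% ± 0.14. At 36h LEF1 supplied 51.1% ± 16.3 and TCF7L1 13.9% ± 13.6 (SD, n = 3). Differentiation 1 stood apart there, with TCF7L1 at 29.55% against 7.32% and 4.75% in differentiations 2 and 3, and LEF1 at 34.8%. The share of LEF1 was 80.9% at P1, 83.8% at P2 and 82.9% at P3, then 68.7% ± 5.39 at P5, 56.9% ± 7.07 at P8 and 66.5% ± 7.38 at P10 (SD, n = 3 each). TCF7L1 supplied 22.7% ± 5.85 at P8 (SD, n = 3), its highest share after t0. TCF7L2, which is not one of the 10 genes, went from 23.3% at t0 to between 2.71% and 8.59% in the groups after it. The summed TPM of the family was 161 ± 5.79 at t0 and 567 ± 305 at P1 (SD, n = 3 each).

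**Figure D3:**
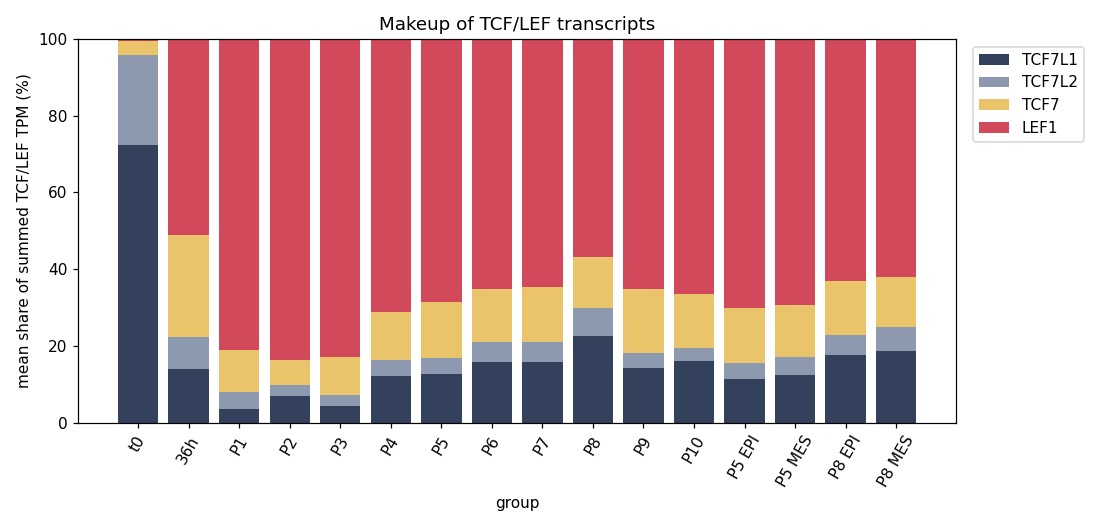
Mean share in percent of each TCF/LEF gene in the summed TPM of the family, stacked to 100 for each of the 16 groups (n = 3, with 2 at P9). TCF7L1 makes up 72.4% at t0, and LEF1 makes up more than 50% of the bar in every later group.

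The third comparison asked whether the members differed between the fractions. No member passed the test at P5 or P8, and no gene did: of 18885 genes, 0.0% were called by edgeR in MES against EPI at either passage. At P5, 25.9% of genes and 3 members (TCF7, TCF7L1 and APCDD1) had an unadjusted p under 0.05, whereas at P8 12.0% of genes and no member did. DESeq2 called 353 genes higher and 321 lower in MES at P5 (3.57% of genes), and 51 higher and 4 lower at P8 (0.291%), with no member among them. The median log2 fold change of the members was 0.39 at P5 and 0.18 at P8, against 0.003 and -0.008 over all genes.

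Each pair of fractions came from 1 culture, so the values are also given pair by pair. APCDD1 was at 268, 326 and 376 TPM in the EPI and at 917, 662 and 660 TPM in the MES fractions of P5, and the groups did not overlap. Its MES over EPI ratio was 3.42, 2.03 and 1.76 at P5 and 2.81, 1.65 and 1.59 at P8, higher in 6 of 6 pairs. The log2 fold change was 1.38 (SE 0.51, adjusted p = 0.136 by edgeR) at P5 and 0.77 (SE 0.51, adjusted p = 0.572 by edgeR) at P8. NKD1 ran the same way, with ratios of 2.75, 2.09 and 1.58 at P5 and 1.86, 1.19 and 1.64 at P8. Its level differed more between differentiations than between fractions, from 54.98 TPM in EPI of differentiation 1 to 270 TPM in EPI of differentiation 3 at P8, and its adjusted p was 0.238 at P5 and 0.813 at P8 by edgeR.

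AXIN2, LEF1 and TCF7L1 were also higher in MES in 6 of 6 pairs, by ratios of 1.02 to 1.62. With APCDD1 and NKD1 this makes 5 of the 10 members, and 15.1% of 13297 genes were higher in 6 of 6 pairs. TCF7 and ZNRF3 were higher in 3 of 3 pairs at P5 only, with ratios no larger than 1.64. LGR5 was higher in 1 of 3 pairs at P5 and in 3 of 3 at P8, where it was at 1.73, 3.09 and 18.0 TPM in EPI and at 2.03, 11.6 and 29.2 TPM in MES. SP5 and RNF43 were higher in MES in 1 of 3 pairs at each passage. SP5 ratios at P5 were 1.09, 0.45 and 0.38, with 22.1 and 20.2 TPM in the MES fractions of differentiations 2 and 3.

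**Figure D4:**
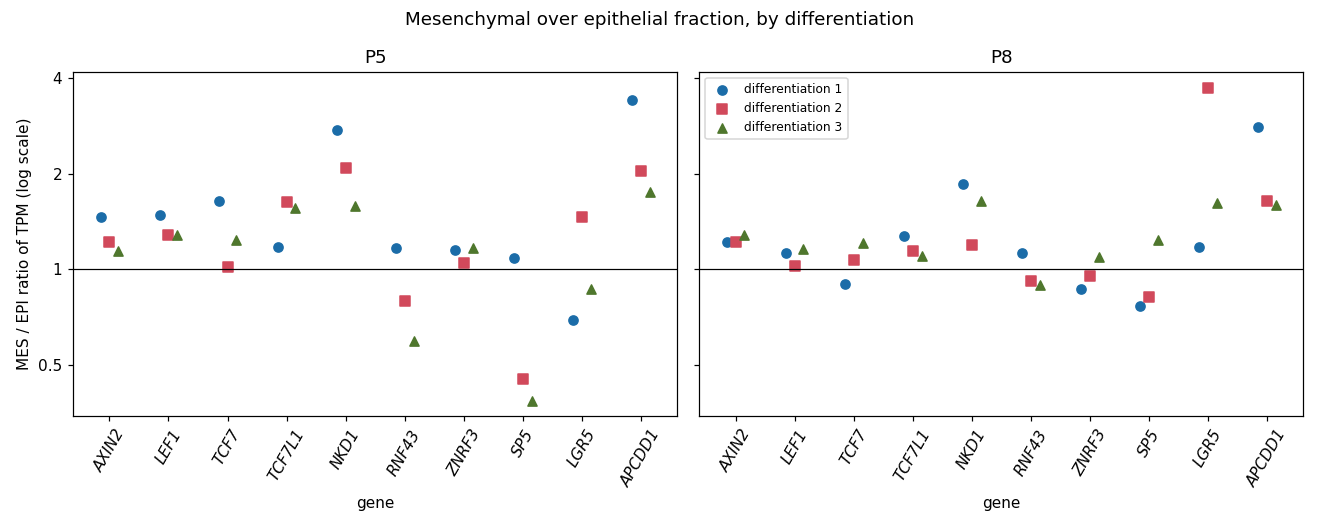
Ratio of TPM in the MES over the EPI fraction (log axis) for each gene and differentiation at P5 (left) and P8 (right); the line marks a ratio of 1. APCDD1 lies above the line in 6 of 6 pairs, from 1.59 to 3.42, and SP5 lies below it in 4 of 6.

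The fractions differed in marker genes in ways that run with these ratios. Of the 8 mesenchymal and neural crest markers, 7 had a higher mean in MES at P5 (not PDGFRA) and 7 at P8 (not SOX9). They summed to 141 to 399 TPM in EPI and 601 to 774 TPM in MES at P5, and to 164 to 773 and 393 to 1128 TPM at P8, where the ranges overlapped. SOX2 was at 178 to 254 TPM in EPI and 32.8 to 92.6 TPM in MES at P5, and at 105 to 301 and 30.3 to 191 TPM at P8, while the neural markers SOX1 and PAX6 were at 1.98 TPM or less in every fraction library. Their part in the member values was not tested.

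Between passages within a fraction, no member was called for P8 against P5 in EPI (0.259% of genes called) or in MES (0.699%). The smallest adjusted p among the members was 0.0638 by edgeR for TCF7L1 in EPI (log2 fold change 0.59, SE 0.17) and 0.0653 for TCF7 in MES (-0.51, SE 0.15). Without differentiation 1, ZNRF3 was called higher at P8 in EPI (1.42, SE 0.08, adjusted p = 0.00296 by edgeR) and in MES (1.23, SE 0.08, adjusted p = 0.00432 by edgeR), and SP5 in MES (2.37, SE 0.19, adjusted p = 0.00647 by edgeR). A test of the difference between passages in the MES against EPI ratio called no gene (0.0%), with an unadjusted p under 0.05 for 6.1% of genes and for no member.

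A whole culture often lay outside its fractions, above both or below both, for 34.3% to 67.5% of 13297 expressed genes in the 6 cultures. These shares are in normalized counts. In differentiation 3 at P8 the whole culture lay below both of its fractions for 9 of the 10 members and above both for TCF7L1. This held in TPM and in normalized counts. There 67.5% of all these genes lay outside, and 6 members lay outside by at least 2-fold, against 2.14% of genes. APCDD1 there was at 448 TPM in the whole culture and at 1256 and 1999 TPM in its EPI and MES fractions. In differentiation 2 at P8, 7 members lay below both fractions in TPM. In normalized counts TCF7 and RNF43, which were among them, lay between the fractions. On that scale 59.6% of genes lay outside in either direction. In the other 5 cultures no member lay outside by 2-fold, nor did more than 0.19% of genes.

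Other genes of the pathway were taken from a list of 30 core genes and a list of 11 further targets. Of the 30 core genes (receptors, Dishevelled, destruction complex, beta-catenin, cofactors, R-spondins and TCF7L2), 2 were called higher at 36h against t0 and none lower, against the 1.33% and 1.37% of all genes, and the list's median log2 fold change was -0.15. They were RSPO3, an R-spondin, at 0.33 to 0.34 TPM at t0 and 8.19 to 266 TPM at 36h (log2 fold change 9.17, SE 1.97, adjusted p = 0.00324 by edgeR), and PYGO1, a beta-catenin cofactor (1.31, SE 0.26, adjusted p = 0.00142 by edgeR). CTNNB1, which encodes beta-catenin, was at 420 ± 36.4 TPM at t0 and 314.5 ± 13.8 TPM at 36h (SD, n = 3 each) and was not called. Of 11 further WNT-associated target genes, 5 were called higher and none lower, with a median of 3.28. They were DKK1, a secreted inhibitor of the LRP co-receptors (9.69), the mesoderm factor TBXT (11.26), the homeobox gene CDX1 (11.31), SP8, a paralogue of SP5 (3.28), and the receptor TNFRSF19 (3.79). Of these 7 genes, CDX1 alone was still called without differentiation 2, and CDX1 alone without differentiation 3.

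At P8 against 36h, CDX1 was lower by a log2 fold change of -9.07 (SE 1.12, adjusted p = 1.72e-06 by edgeR), TBXT by -6.06 (SE 1.41, adjusted p = 0.00157 by edgeR) and the targets DKK1 and SP8 and the R-spondins RSPO3 and RSPO4 were also called lower. No member was called lower there, although SP5 lay below its 36h libraries as given above, and the difference between these genes and the members was not tested. CDX1 was at 50.2 to 223 TPM at 36h and at 0.07 to 0.55 TPM at P8. TNFRSF19 went the other way, from 4.79 to 17.2 TPM at 36h to 124 to 157 TPM at P8 (log2 fold change 3.88, SE 0.57, adjusted p = 1.42e-05 by edgeR), and CTNNBIP1, an inhibitor that binds beta-catenin, NKD2, a paralogue of NKD1, PYGO1 and the corepressor gene TLE4 were also called higher. Of these 11 calls, those of CDX1, TNFRSF19, PYGO1 and TLE4 held when any 1 differentiation was left out, and the other 7 were lost without differentiation 2 and without differentiation 3. After P8, DKK1 was at 340 and 473 TPM at P9 and at 2.14 to 622 TPM at P10, against 2.87 to 7.75 TPM at P8. RSPO4 was called higher against 36h at P10 (log2 fold change 1.54, adjusted p = 0.00797 by edgeR) and against P8 at P9 and P10. None of these RSPO4 calls was kept without differentiation 2 or without differentiation 3. CDX1, TBXT, SP8 and RSPO3 were still called lower against 36h at P9 and P10. TBXT and CDX1 are also markers of neuromesodermal progenitors, and 3 other markers of these cells did not move as one. NKX1-2 was at 108.5 ± 65.1 TPM at 36h and 5.40 ± 6.05 TPM at P8, CDX2 at 107.9 ± 80.2 and 174 ± 160 TPM, and SOX2 at 80.9 ± 118 and 184 ± 119 TPM (SD, n = 3 each). In the MES fraction, TLE4 (1.34, SE 0.18, adjusted p = 0.0081 by edgeR) and CCND1, a cyclin gene (1.21, SE 0.11, adjusted p = 0.00484 by edgeR), were the 2 listed genes called higher at P8 against P5, and neither was called without differentiation 2 or without differentiation 3.

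For each member the genes with the most similar pattern were ranked by Pearson's r of log2(normalized count + 1) over the 16 group means, which share differentiations, and this is a description across groups. For SP5 they were LINC01124 (r = 0.995), HOTAIRM1 (0.986) and AC007277.1 (0.969). LINC01124 (chr2:170712451-170714567, minus strand) starts 784 bases upstream of SP5 and is transcribed away from it, so the promoter window printed above lies between the pair, and AC007277.1 (chr2:170640374-170695374) lies 19977 bases away. LINC01124 was at 0.00 to 0.02 TPM at t0, at 5.08 to 7.38 TPM at 36h and at 0.35 and 4.40 TPM at P9, where SP5 was at 9.25 and 235 TPM. On log2(TPM + 1) the r of SP5 with LINC01124 was 0.934 and with AC007277.1 0.899, and neither was then among the nearest genes.

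**Figure D5:**
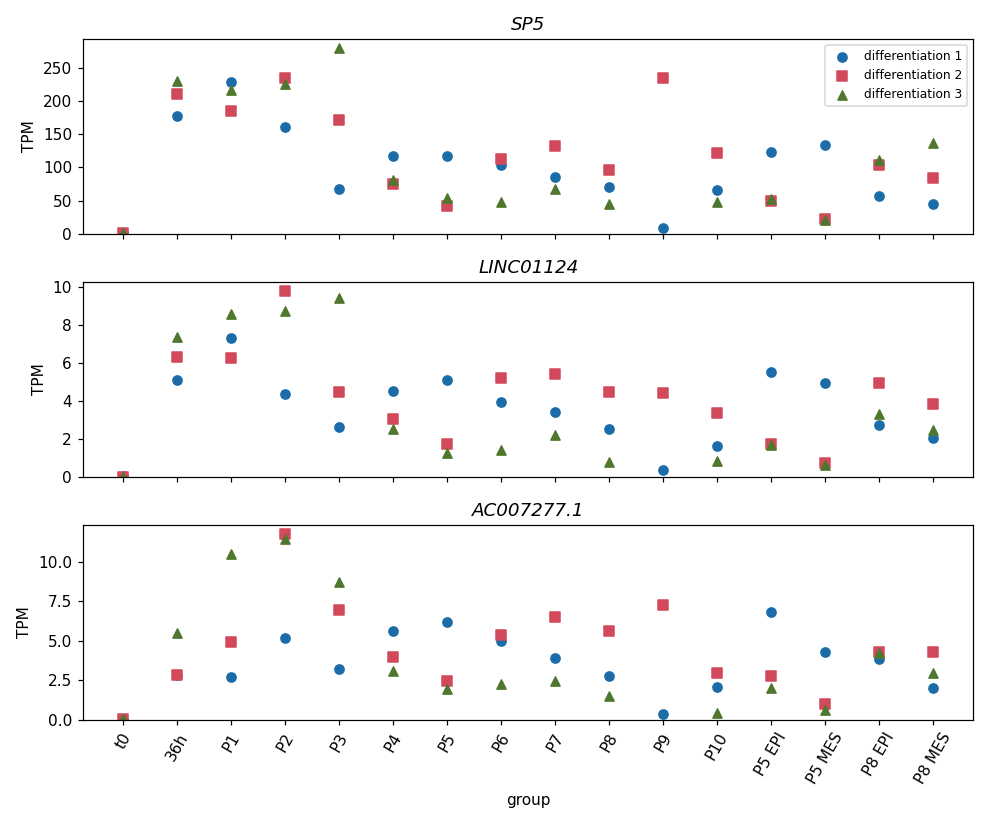
TPM on linear axes of SP5 and of its neighbours on chromosome 2, LINC01124 and AC007277.1, in every library by group, with a symbol for each differentiation. All 3 genes are near 0 at t0 and low in the P9 library of differentiation 1, at 9.25, 0.35 and 0.34 TPM.

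The nearest genes of the others were TMEM132C, MSX1 and TNRC18 for AXIN2 (r from 0.978 to 0.984), KIAA1841, IER5L and CMTM3 for NKD1 (0.973 to 0.993) and ADAMTS10, SAMD5 and PLCG1 for APCDD1 (0.971 to 0.978). For LEF1 they were GPATCH11, EGFLAM and KIAA0895 (0.965 to 0.976), for RNF43 BIN3, LEF1 and ZBTB10 (0.935 to 0.951) and for ZNRF3 TBC1D20, NKIRAS2 and TP53INP2 (0.971 to 0.972). For TCF7 they were SPRED2, YAF2 and BLOC1S6 (0.929 to 0.959), for TCF7L1 TBC1D1, OSBPL2 and SPRY3 (0.933 to 0.944) and for LGR5 CCDC146, ZC3H12B and ZNF608 (0.947 to 0.970). Over all members, 10 of the 30 nearest genes were also named on log2(TPM + 1). Among the members themselves, LEF1 ran closest to NKD1 and RNF43 (r = 0.95 with both), and TCF7L1 ran opposite to SP5 (r = -0.85).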

How the data were processed

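Poly(A) RNA of 47 libraries was sequenced as single-end reads. The submitters' processing notes name cutadapt 1.16, STAR 2.5.2b, RSEM 1.3.0 and the build GRCh38; the annotation release and strand setting are not given in the sources used here. The deposited files hold RSEM expected counts (estimated counts, not whole for 9.33% of all values, those at 0 included) and TPM, which the authors computed per gene and library. Gene symbols and positions came from GENCODE 29, which matched 57447 of 58051 identifiers.

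Expected counts were rounded and tested with edgeR 4.0.16 (R 4.3.3; TMM scaling, filterByExpr, quasi-likelihood F-test, Benjamini-Hochberg adjustment over all genes tested), in 1 fit over the 35 whole cultures and 1 over the 12 fraction libraries. The replicate number was a block, since each experiment was followed through all time points. Checked on the data, libraries with the same number deviated together from the group means for neighbouring groups from P2 to P8 and between fractions (mean r from 0.4 to 0.78). They did so less between P1 and P2 (0.25) and between 36h and P1 (0.21, lowest -0.12). They did not between t0 and 36h (-0.01), P8 and P9 (0.01) or P9 and P10 (0.02), so the block is not borne out by the data at those steps. A call needed an adjusted p under 0.01, a difference of 2-fold or more and normalized counts averaging 100 or more over the libraries compared. The study gives these limits with a DESeq2 base mean as its floor on counts. LGR5 at P2 against t0 passed the other limits (log2 fold change 3.57, adjusted p = 0.00872 by edgeR) but averaged 73.4 counts and was not called. Levels between genes were compared in TPM only. Pattern likeness was Pearson's r over 16 group means.

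Tested on simulated data, the 36h against t0 fit recovered 47% of 2-fold and 80% of 4-fold changes among 21750 genes, and the P5 fraction fit 51% and 85% among 18885. The simulated counts had no difference between differentiations, and low-count genes were not among those changed. Recovery in the real data was therefore not measured and may be lower. In the real P5 fractions edgeR called 0.0% of genes and DESeq2 3.57%. DESeq2 1.42.0, limma 3.58.1 on log2(TPM + 1), other scaling, filters, thresholds and left-out libraries were the alternatives. The named genes were all 10 members; of the other pathway lists, those called at 36h or in a fraction comparison (at most 5 per list and comparison, by size), with later values of other listed genes added after their values were seen; and the 3 nearest genes by pattern. The members and lists were chosen with earlier results of these data known.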

Additional observations from a re-analysis of the deposited data

How the results depend on the processing

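In 183 of 215 recomputed counts the number of members called was within 1.5 times the reported one, and of 460 recomputed fold changes 414 kept their direction and side of the threshold. A recomputed 0 was taken as the same as a reported 0. Many of the comparisons, all those of the fractions among them, reported no member, so part of this likeness is between counts of 0. Leaving out 1 differentiation in turn gave 2 to 8 members called for 36h against t0 (8 reported), 0 to 2 for P1 against 36h, 0 to 3 for P5 and for P8 against 36h, 0 to 5 for P10 against 36h, 0 to 4 for P9 against P8 (with 1 P9 library left, assumed to vary like the other groups, without differentiation 1 or 2), 0 to 1 for P10 against P8 and for P8 against P5 in EPI, and 0 to 2 in MES. With only the compared libraries in the fit, 5 members were called for 36h against t0 and 0 for P1, P5, P8 and P10 against 36h. The shares of all genes called in these fits are not given here, so the counts have no background beside them. Without the replicate block the 1 call at P5 and the 1 at P8 against 36h became 0, and the block changed no other count of those reported by over 1.5 times. At 5% FDR the counts were 2 at P5 and 4 at P8 against 36h and 1 for P9 against P8. DESeq2, and the fit without the P1 library of differentiation 1, called 2 at P5 against 36h. With no filter on low counts, or with limma on log2(TPM + 1), 0 were called at P8 against 36h.

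Over all alternatives but limma, 28 of 150 fold changes of members took either sign, and none of these was a reported call. The widest was SP5 at P9 against P8, from -2.5 to 1.57, and others were NKD1 for P8 against P5 in MES, from -1.36 to 0.38, and TCF7L1 at P1 against 36h, from -1.18 to 0.46. For P5 against 36h, leaving out 1 differentiation gave log2 fold changes of -0.13 to 1.41 for TCF7L1, with -0.01 without differentiation 3, of -0.36 to 0.63 for RNF43 and of -0.07 to 0.3 for ZNRF3, which was at -0.07 with limma too. For P5 MES against EPI it gave -0.52 to 0.04 for RNF43 and -0.41 to 0.24 for LGR5, which was at 0.02 with no block. Of 40 mean levels, 37 moved by less than 1 SD when TPM was replaced by normalized counts per kilobase. LGR5 had the fewest counts of the members, 0 to 25 in 6 libraries of t0, 36h and P1 that held between 21802304 and 57041480 in all, and the largest standard error of them for 36h against t0 (1.05). The cause of these shifts was not tested, apart from fewer libraries in the fit.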
